A study of Mus musculus with 12 samples.

Results

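The 9 genes of prostaglandin and leukotriene synthesis described here were Ptgs1, Ptgs2, Ptges, Tbxas1, Hpgd, Alox5, Alox5ap, Lta4h and Ltc4s. They were chosen by symbol from a list of lipid mediator genes, and all 9 of the 9 were found among the 23238 gene symbols of the files and passed the filter on low counts. RNA of alveolar type II (ATII) cells, the surfactant-producing epithelium of the lung, was sequenced from 12 mice, 1 library per mouse and 3 mice per group. Con mice, without deletion of p300, received PBS into the trachea, and BLM mice, of the same genotype, received 4 mg/kg bleomycin, an antitumour drug whose DNA breaks injure lung tissue. KO and KOBLM mice (Spc-p300 d/d) received PBS or the same dose of bleomycin after deletion of p300, a histone acetyltransferase and coactivator of transcription. The deletion removes exon 9 through a tamoxifen-inducible Cre driven by the surfactant protein C promoter, so it is limited to cells in which that promoter is active, and the labels give 10 mg/kg tamoxifen to 8-week-old mice before bleomycin. Con is WT in the sample titles, and the titles of BLM name no genotype. The study names both groups as Spc-p300 f/f in one place and as C57BL/6 in another, so whether they carried the floxed alleles is not settled. The labels give 10 mg/kg tamoxifen for all 12 libraries, Con and BLM included. A legend of the study, however, names vehicle or tamoxifen for mice whose ATII cells were isolated. Whether Con and BLM received tamoxifen is therefore not settled either, and if they did not, tamoxifen and the deletion cannot be told apart. CD74 and EpCAM on the cell surface were the markers of the sort.

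Prostaglandins and leukotrienes are made from arachidonic acid, which phospholipases release from membranes. Cyclooxygenases turn it into prostaglandin H2, from which further synthases make prostaglandin E2 or thromboxane A2. 5-lipoxygenase, held at the membrane by its activating protein FLAP, turns it into leukotriene A4, which is then converted to leukotriene B4, an attractant of neutrophils, or to leukotriene C4, a constrictor of airways. In the lung, alveolar macrophages and other myeloid cells are a known source of leukotrienes, whereas prostaglandin E2 is also made by epithelial cells and fibroblasts.

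The 12 libraries held 7005005 to 11153154 counts. At these totals the detection floor of 3 counts corresponded to 0.269 to 0.428 CPM (counts divided by the total of their library and rescaled), and it covers counting error only. Ep300, the gene of p300, was not lower in the libraries labelled KO than in Con (log2 fold change 0.39, edgeR p = 0.579, adjusted p = 1, exact permutation p = 0.5), but the kit reads the 3′ end of transcripts, beyond the floxed exon, so these counts do not check its removal. The study examined the deletion by qRT-PCR and co-immunofluorescence, which were not analysed here, and every direction for KO and KOBLM rests on the labels. The library BLM 3 stood apart. It had 6847 genes with a count, against 8790 to 13838 in the others, and its Spearman coefficients across genes with the other 2 libraries of its group were 0.593 and 0.598, against 0.777 to 0.909 for other pairs within a group. The tests of the 9 genes between BLM and Con are given with and without it. A list of 17 macrophage markers summed to 1046 to 40200 CPM and exceeded the sum of 12 ATII markers, 496 to 2453 CPM, in every library. The labelled cell type was thus not the one whose listed markers were highest. Single genes could dominate the ATII sum. Lyz1 gave 451 of its 806 CPM in KOBLM 3, and Etv5 397 of its 561 CPM in BLM 3. Sftpc, the gene of surfactant protein C, ran from 0.554 CPM in KOBLM 3 to 612 CPM in Con 2. In such bulk samples fewer cells of a type and less RNA per cell cannot be told apart.

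Mean levels of the 9 genes ran from 2.60 to 968.3 CPM. Counts at the 3′ end do not grow with transcript length, so CPM levels can be set side by side without a length correction. Alox5ap was the highest, with a mean of 968.3 CPM over the 12 libraries, and alone gave 48.3% to 97.6% of the summed CPM of the 9 genes. Alox5 (157 CPM), Ltc4s (128 CPM), Lta4h (107 CPM) and Tbxas1 (83.4 CPM) followed, and their ranges over the libraries overlapped. Hpgd had a mean of 48.7 CPM and Ptgs1 of 22.5 CPM. Ptgs2 (3.66 CPM) and Ptges (2.60 CPM) were at the bottom and exceeded the floor in 5 and 6 of the 12 libraries. The genes of the leukotriene branch were therefore above the cyclooxygenases and Ptges in mean level.

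**Figure D1:**
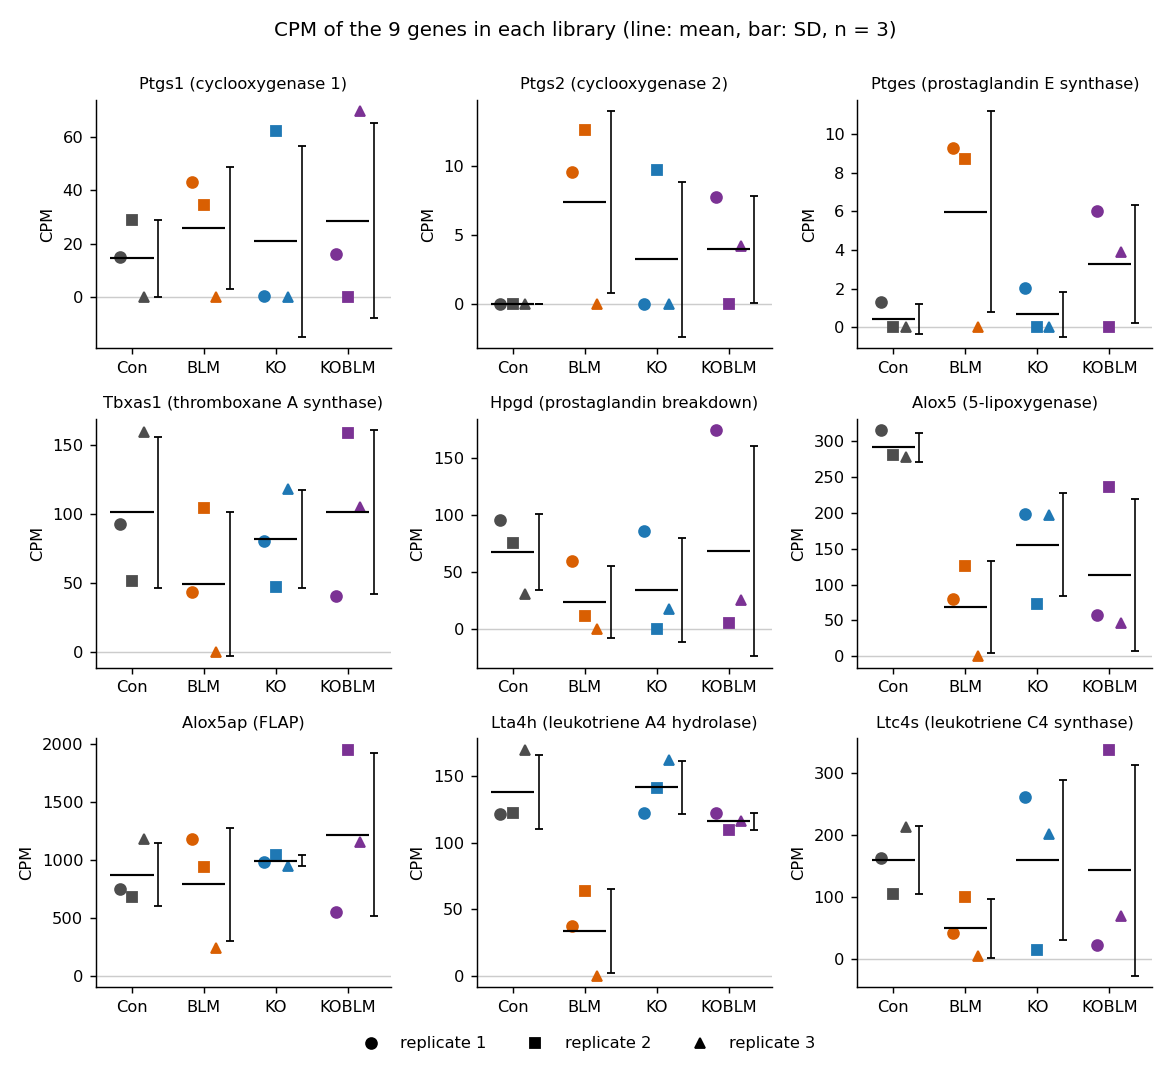
CPM of the 9 genes (vertical axes, one panel per gene) in the libraries of Con, BLM, KO and KOBLM (horizontal axes), with symbols for the replicate number, a line at the group mean and a bar of 1 SD (n = 3) drawn beside it. Lta4h is at 0 to 63.3 CPM in the 3 BLM libraries and at 109 to 170 CPM in the other 9, and Ptgs2 is at 0 in the 3 Con libraries.

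Promoter windows of 8 of the 9 genes, from 250 bases before to 50 bases after the RefSeq gene start, were searched on both strands for 12 motifs. GAGGAA, the core of sites bound by PU.1, a transcription factor of myeloid cells, was in 8 of the 8 windows and in 28.3% of the 32851 windows of all genes. Alox5ap was not among the windows. TTGCGCAA, the palindrome bound by C/EBP factors, was in Ptgs2 only of the 8, and in 0.183% of all windows. The Ptgs2 window also held ACGTCA, a core of the cAMP response element (7.51% of all windows), which overlaps CACGTG, the E-box (7.15%). The more degenerate C/EBP patterns TTGCNNAA and TTNNGNAA, which the palindrome also matches, were in 10.8% and 40.7% of all windows. GGGCGG, the GC box, was in Ptgs2, Ptges, Alox5 and Hpgd (35.7% of all windows), TATAAA in Tbxas1 and Hpgd (13.6%), and CCAAT in Lta4h (37.4%). A match describes letters in a window, not a bound site.

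The windows of 4 genes are shown because Ptgs2 and Ptges were the genes with counts mainly in bleomycin libraries, and Alox5 and Lta4h those that differed most between BLM and Con among the leukotriene genes. They are RefSeq sequences of GRCm38.p6, written 5′ to 3′ on the strand of the gene. Ptgs2 is at chr1:150099781-150100080 (+), Ptges at chr2:30903248-30903547 (-), Alox5 at chr6:116461129-116461428 (-) and Lta4h at chr10:93453146-93453445 (+). The Ptges window lies inside the gene as GENCODE places it (30889471 to 30929863), so the RefSeq and GENCODE starts of Ptges differ. Capitals mark TTGCGCAA, the joined ACGTCA and CACGTG and GAGGAA in Ptgs2, GAGGAA and GGGCGG in Ptges and Alox5, and GAGGAA and CCAAT in Lta4h, each on either strand.
Ptgs2: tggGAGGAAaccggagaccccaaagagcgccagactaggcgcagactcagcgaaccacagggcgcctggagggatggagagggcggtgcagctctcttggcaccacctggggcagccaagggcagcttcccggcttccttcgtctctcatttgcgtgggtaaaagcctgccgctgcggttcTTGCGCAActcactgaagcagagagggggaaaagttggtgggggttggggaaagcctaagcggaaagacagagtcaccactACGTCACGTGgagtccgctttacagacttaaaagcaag
Ptges: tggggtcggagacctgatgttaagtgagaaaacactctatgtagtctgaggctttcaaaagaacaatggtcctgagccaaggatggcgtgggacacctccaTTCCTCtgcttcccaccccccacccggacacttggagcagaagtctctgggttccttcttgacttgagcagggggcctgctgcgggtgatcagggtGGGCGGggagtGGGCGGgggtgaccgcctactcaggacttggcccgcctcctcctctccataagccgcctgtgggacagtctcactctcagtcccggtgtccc
Alox5: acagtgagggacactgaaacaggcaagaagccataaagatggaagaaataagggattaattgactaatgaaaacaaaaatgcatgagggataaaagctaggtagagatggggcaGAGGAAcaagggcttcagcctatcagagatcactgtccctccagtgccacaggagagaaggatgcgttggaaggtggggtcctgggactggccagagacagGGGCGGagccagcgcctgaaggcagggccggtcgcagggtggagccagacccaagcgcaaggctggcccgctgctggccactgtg
Lta4h: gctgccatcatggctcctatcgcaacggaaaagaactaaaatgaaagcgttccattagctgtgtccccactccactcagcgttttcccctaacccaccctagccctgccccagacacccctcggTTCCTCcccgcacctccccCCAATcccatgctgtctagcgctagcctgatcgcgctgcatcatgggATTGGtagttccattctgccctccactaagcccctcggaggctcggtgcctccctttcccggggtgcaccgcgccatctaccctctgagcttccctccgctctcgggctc

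Ptgs1 encodes cyclooxygenase 1, the form made in most tissues without a stimulus (chromosome 2, 36230426 to 36252272, GRCm38). It had 15.1, 28.8 and 0 CPM in Con 1 to 3, 43.1, 34.4 and 0 CPM in BLM, 0.608, 62.4 and 0 CPM in KO, and 16.2, 0 and 69.7 CPM in KOBLM. Every group held a library at 0 counts and a library at 28.8 CPM or more, so the ranges overlapped in all 4 comparisons. The libraries at 0 were Con 3, BLM 3, KO 3 and KOBLM 2, and these were the 4 with the fewest genes (6847 to 10246 genes with a count, against 11139 to 13838 in the other 8). The part of library breadth in these zeros was not tested. Between BLM and Con the log2 fold change was 0.92 ± 2.61 (SE, edgeR p = 0.730, adjusted p = 1, exact permutation p = 0.6), and without BLM 3 it did not pass either (adjusted p = 1, exact permutation p = 0.3).

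Ptgs2 encodes cyclooxygenase 2, the form induced by cytokines, growth factors and injury (chromosome 1, 150100031 to 150108227). It was at 0 counts in the 3 Con libraries. BLM 1 and BLM 2 had 67 and 96 counts, or 9.56 and 12.7 CPM, and BLM 3 had 0. KO 2 had 71 counts (9.75 CPM) while KO 1 and KO 3 were at 0. KOBLM 1 and KOBLM 3 had 58 and 38 counts (7.76 and 4.21 CPM), and KOBLM 2 was at 0. Ptgs2 was thus above the floor in 4 of 6 bleomycin libraries and in 1 of 6 PBS libraries, all of them among the 8 libraries with the most genes. The mean of BLM, 7.41 ± 6.60 CPM (SD, n = 3), was at least 22.1-fold higher than Con, and that of KO, 3.25 ± 5.63 CPM, at least 9.70-fold higher, with the 3 count floor of each Con library in place of 0. The edgeR test of BLM against Con gave p = 0.0513 (adjusted p = 0.995, exact permutation p = 0.4), just outside the threshold used here, an unadjusted p under 0.05 with a fold change over 1.5. Without BLM 3 the test gave p = 0.0346 (adjusted p = 0.875, exact permutation p = 0.1) and Ptgs2 was called, and DESeq2, another count test, called it on all libraries (adjusted p = 1.06e-06). DESeq2 also called KO against Con (adjusted p = 2.49e-06), where 1 KO library alone had counts and the exact permutation p was 1, so a DESeq2 call against a group at 0 needed counts in only 1 library.

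Ptges encodes the inducible prostaglandin E synthase of membranes, which is coupled to cyclooxygenase 2 (chromosome 2, 30889471 to 30929863). It had 10 counts in Con 1 and 0 in Con 2 and Con 3. BLM 1 and BLM 2 had 65 and 66 counts (9.28 and 8.71 CPM), and BLM 3 had 0. KO 1 had 20 counts and KO 2 and KO 3 had 0, whereas KOBLM 1 and KOBLM 3 had 45 and 35 and KOBLM 2 had 0. The highest libraries were therefore BLM 1 and BLM 2, followed by KOBLM 1 and KOBLM 3, the same 4 bleomycin libraries in which Ptgs2 was counted. The means were 0.446 ± 0.772 CPM in Con and 5.995 ± 5.20 CPM in BLM (SD, n = 3 each), and the ranges overlapped through BLM 3. In edgeR this was a log2 fold change of 3.88 ± 3.49 (SE, p = 0.284, adjusted p = 1, exact permutation p = 0.4), and without BLM 3 of 4.46 ± 3.48 (adjusted p = 0.989, exact permutation p = 0.1).

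**Figure D2:**
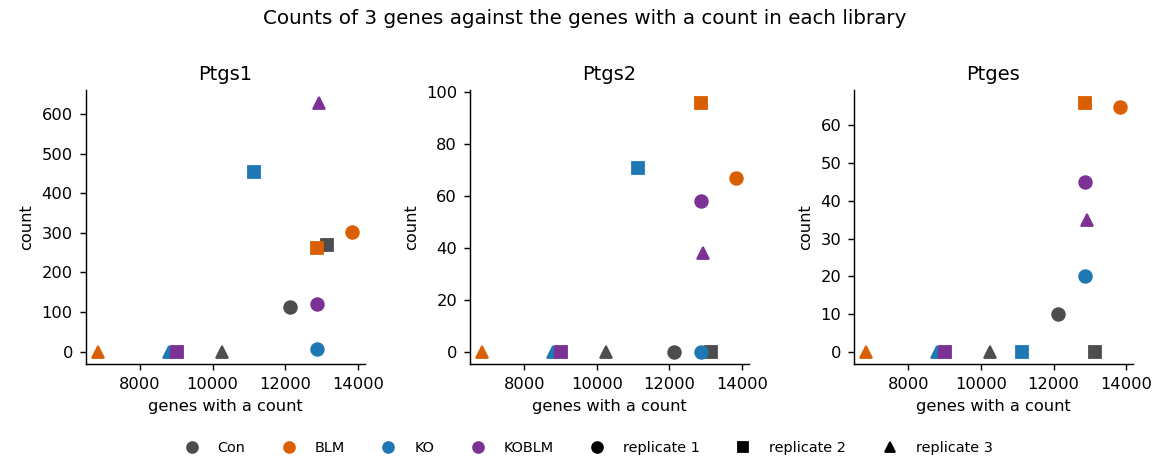
Counts of Ptgs1, Ptgs2 and Ptges (vertical axes) against the number of genes with a count (horizontal axes) in the 12 libraries, coloured by group with symbols for the replicate number. The 4 libraries with 6847 to 10246 genes are at 0 for all 3 genes, and every count above the floor comes from libraries with 11139 to 13838 genes.

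Tbxas1 encodes thromboxane A synthase, abundant in platelets and macrophages (chromosome 6, 38875404 to 39084585). Its values were 92.4, 51.7 and 159 CPM in Con, 43.5, 104 and 0 CPM in BLM, 80.4, 47.1 and 118 CPM in KO, and 40.3, 159 and 105 CPM in KOBLM. BLM 3 was the only library at 0, and the ranges of all 4 comparisons overlapped. The log2 fold change between BLM and Con was -0.85 ± 1.33 (SE, edgeR p = 0.533, adjusted p = 1, exact permutation p = 0.3), and without BLM 3 it was -0.27 ± 0.65 (adjusted p = 1, exact permutation p = 0.6).

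Hpgd encodes the dehydrogenase that inactivates prostaglandins (chromosome 8, 56294585 to 56321043). It had 95.9, 76.0 and 30.8 CPM in Con, 59.7, 11.9 and 0 CPM in BLM, 86.1, 0 and 17.7 CPM in KO, and 175, 5.59 and 25.9 CPM in KOBLM. The spread inside KOBLM alone exceeded that between the group means, and no comparison separated the ranges. Between BLM and Con the log2 fold change was -1.41 ± 1.92 (SE, edgeR p = 0.473, adjusted p = 1, exact permutation p = 0.2), and without BLM 3 it was -0.83 ± 1.62 (adjusted p = 1, exact permutation p = 0.4). For KOBLM against BLM it was 1.55 ± 1.92 (edgeR p = 0.434, adjusted p = 1, exact permutation p = 0.5), and 0.96 ± 1.63 without BLM 3.

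Alox5 encodes 5-lipoxygenase, which opens the leukotriene branch (chromosome 6, 116410077 to 116461178). It had 314.7, 280.5 and 277.7 CPM in Con and 79.8, 126 and 0.0897 CPM in BLM, the last from 1 count. KO libraries had 197.7, 73.2 and 196.4 CPM, and KOBLM libraries had 57.9, 235.6 and 46.9 CPM. All Con libraries lay above all libraries of the other 3 groups. The Con mean of 291.0 ± 20.6 CPM (SD, n = 3) was 4.23 times that of BLM, 68.8 ± 63.9 CPM, and 1.87 times that of KO, 156 ± 71.5 CPM. In edgeR the log2 fold changes were -1.92 ± 1.26 (SE) between BLM and Con (p = 0.148, adjusted p = 1) and -0.84 ± 1.22 between KO and Con (p = 0.505, adjusted p = 1), so neither passed, with an exact permutation p of 0.1 for each. Without BLM 3 the first was -1.34 ± 0.63 (edgeR p = 0.0506, adjusted p = 0.884, exact permutation p = 0.1).

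Alox5ap encodes FLAP, which presents arachidonic acid to 5-lipoxygenase (chromosome 5, 149264767 to 149288153). Its values were 752, 678 and 1182 CPM in Con, 1185, 942 and 243 CPM in BLM, 986, 1045 and 951 CPM in KO, and 547, 1953 and 1155 CPM in KOBLM. BLM 3 was the lowest of the 12 libraries, while the other BLM libraries lay inside the range of Con or just above it. The group means ran from 790.1 ± 489 CPM in BLM to 1218 ± 705 CPM in KOBLM (SD, n = 3). The log2 fold change between BLM and Con was -0.03 ± 0.60 (SE, edgeR p = 0.960, adjusted p = 1, exact permutation p = 0.9). It was 0.43 ± 0.44 without BLM 3 (edgeR p = 0.339, adjusted p = 1, exact permutation p = 0.4). Alox5 and its activating protein thus had different patterns in the same libraries, with Alox5 of BLM 1 and BLM 2 below every Con library and Alox5ap not, a difference that was not itself tested.

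Lta4h encodes leukotriene A4 hydrolase, which makes leukotriene B4 (chromosome 10, 93453411 to 93484875). It had 122, 122 and 169.9 CPM in Con, 37.5, 63.3 and 0 CPM in BLM, 122, 141 and 162 CPM in KO, and 122, 109 and 117 CPM in KOBLM. Lta4h was lower in each BLM library than in every library of the other groups, and outside BLM it stayed between 109 and 169.9 CPM. The Con mean of 138 ± 27.6 CPM was 4.11 times the BLM mean of 33.6 ± 31.8 CPM, and the KOBLM mean of 116 ± 6.62 CPM was 3.45 times it (SD, n = 3 each). The log2 fold changes were -1.87 ± 1.24 (SE) for BLM against Con (edgeR p = 0.152, adjusted p = 1) and 1.74 ± 1.23 for KOBLM against BLM (p = 0.180, adjusted p = 1), and neither passed, with an exact permutation p of 0.1 for each. Without BLM 3 they were -1.29 ± 0.45 (p = 0.0116, adjusted p = 0.615) and 1.15 ± 0.44 (p = 0.0206, adjusted p = 1), smaller but past the unadjusted edgeR threshold, and the exact permutation p was 0.1 for each, the smallest it can give.

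Ltc4s encodes leukotriene C4 synthase, the first step towards the cysteinyl leukotrienes (chromosome 11, 50236461 to 50238616). It had 163, 104 and 214 CPM in Con, 42.3, 101 and 5.92 CPM in BLM, 262, 14.7 and 202 CPM in KO, and 22.6, 337.5 and 70.1 CPM in KOBLM. BLM lay below Con without overlap, but BLM 2 came close to Con 2, and KO 2, KOBLM 1 and KOBLM 3 were below Con as well. The Con mean of 160.2 ± 54.6 CPM was 3.22 times the BLM mean of 49.7 ± 47.9 CPM (SD, n = 3 each). This was a log2 fold change of -1.52 ± 1.13 (SE, edgeR p = 0.197, adjusted p = 1, exact permutation p = 0.1), and without BLM 3 it was -0.98 ± 1.01 (adjusted p = 1, exact permutation p = 0.2).

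No member was called in any comparison with edgeR on all libraries. Between BLM and Con, 6 of the 9 genes had a negative and 3 a positive log2 fold change, with a median of -0.85 (the same with Ptgs2 at its bound) beside -0.08 over all tested genes, and 0 of 9 were called, beside 4.27% of the 13054 tested genes. Between KOBLM and BLM, 7 were positive and 2 negative (median 0.63, all genes 0.10), and 0 of 9 were called, beside 3.16% of all. BLM is in both comparisons, so opposite signs do not count as separate evidence. Between KO and Con the count was 0 of 9 beside 1.44%, between KOBLM and KO 0 of 9 beside 1.69%, and for the difference of the bleomycin effects between genotypes 0 of 9 beside 2.82%. With an adjusted p under 0.05, edgeR called 0 of all tested genes in each comparison, where DESeq2 called 57 (KOBLM against KO) to 114 (BLM against Con). The spread between mice of a group was large, with a biological coefficient of variation of 1.44. Ranges that did not overlap were those of Alox5, Lta4h and Ltc4s between Con and BLM (3 of 9, against 17.1% of all tested genes), Lta4h between KOBLM and BLM (1 of 9, 11%), Alox5 between KO and Con (1 of 9, 9.74%) and none between KOBLM and KO (6.82%). The exact permutation test of 3 mice against 3 cannot go below p = 0.1, which those 5 reached.

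Without BLM 3, 2 BLM libraries remained. Between BLM and Con, 6 of the 9 ranges then did not overlap, against 31.5% of all tested genes, with Ptgs1, Ptgs2 and Ptges higher and Alox5, Lta4h and Ltc4s lower in BLM. Between KOBLM and BLM, 3 of 9 did not overlap, against 23.4% of all, with Ptgs2 and Ptges lower and Lta4h higher in KOBLM. The edgeR calls were then Lta4h and Ptgs2 between BLM and Con, beside 767 of all 14084 genes tested without BLM 3. Between KOBLM and BLM the call was Lta4h, beside 471 of the 14084.

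**Figure D3:**
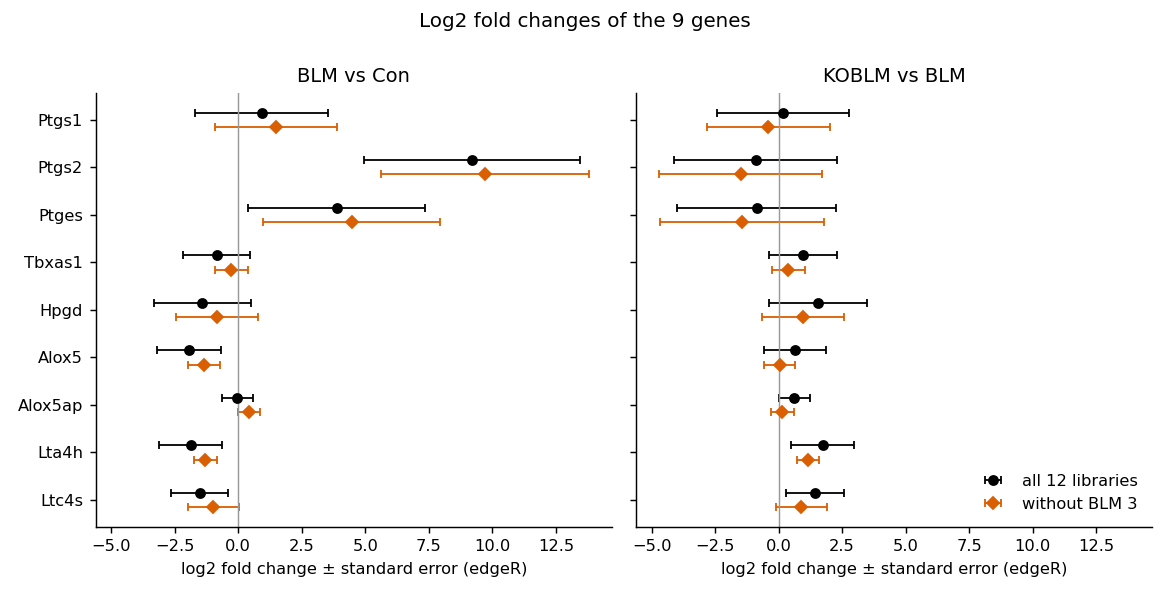
Log2 fold changes with standard errors from edgeR (horizontal axes) of the 9 genes (vertical axis) for BLM against Con and KOBLM against BLM, with all 12 libraries (circles) and without BLM 3 (diamonds). The Lta4h estimates move from -1.87 to -1.29 and from 1.74 to 1.15 when BLM 3 is left out, with standard errors that fall from 1.24 to 0.45 and from 1.23 to 0.44.

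Averaging over the other factor used all mice. In the exact permutation test of the bleomycin effect within each genotype, on log2(CPM + 1) with 400 assignments and a smallest possible p of 0.005, 2 of the 9 genes had p under 0.05. Lta4h was lower with bleomycin by 1.81 on that log2 scale (a difference of -1.81, two-sided exact permutation p = 0.01) and Alox5 by more (-2.21, exact permutation p = 0.035). Without BLM 3 the differences were -0.87 for Lta4h (exact permutation p = 0.01) and -1.12 for Alox5 (exact permutation p = 0.05). Lta4h was lower in BLM than in Con but not in KOBLM than in KO by as much (116 against 142 CPM), and the edgeR interaction of the 2 effects gave a log2 difference of 1.59 ± 1.71 (SE, adjusted p = 1). In the test of p300 genotype within each treatment, Lta4h alone had p under 0.05 (1.58 higher in the deleted genotype, exact permutation p = 0.045). That average came from the bleomycin groups. The difference was 0.046 between KO and Con (exact permutation p = 0.9) and 3.11 between KOBLM and BLM, or 1.23 without BLM 3 (exact permutation p = 0.1 for each). The permutation tests of the averaged effects were run on the 9 genes only, so the share of all tested genes with p under 0.05 in them is not known. The counts of genes under 0.05 therefore cannot be set against a background. These permutation p values are unadjusted, and they change when 1 library is left out, which also leaves fewer assignments. Leaving out Con 1, Con 2 or Con 3 gave an exact permutation p of 0.13 to 0.145 for the bleomycin effect of Lta4h and of 0.135 for that of Alox5, and leaving out any 1 KOBLM library gave 0.225 for the genotype effect of Lta4h. The edgeR tests of the averaged effects called 0 of the 9 genes, beside 4.47% of all genes for bleomycin and 2.9% for genotype.

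The 17 markers summed to 11065 to 23673 CPM in Con, 1046, 9630 and 10694 CPM in BLM, 10230 to 40200 CPM in KO and 8224 to 19683 CPM in KOBLM, so every BLM library was below every Con library. Adgre1, Csf1r, Marco and Siglecf of this list were at 0 in BLM 3. Chil3, a chitinase-like protein of alveolar macrophages, gave 35.2% to 76.0% of the sum, and the list did not move as one. In BLM 1 and BLM 2, 8 of the 17 were below every Con library, among them Chil3, Siglecf, Ear2 and Itgax, whereas 6 were above every Con library, namely C1qa, C1qb, C1qc, Msr1, Csf1r and Cd14. C1qa, a complement component made by macrophages, had 950.3 and 956 CPM in BLM 1 and BLM 2 and 0 to 23.3 CPM in Con. The sum therefore cannot be read as the amount of macrophage RNA, and no level scaled to it is given here. Neutrophil markers, 9 of which were in the files, summed to 152 to 3894 CPM in Con and 143 to 5891 CPM in BLM. Fibroblast markers summed to 901 to 1390 CPM in BLM and 64.3 to 424 CPM in Con. In each BLM library that sum exceeded the one of ATII markers. Platelet markers summed to 1125, 274 and 0 CPM in BLM 1 to 3 and 69.2 to 82.7 CPM in Con. T and B cell markers were lower in BLM, at 0 to 19.9 against 23.8 to 49.2 CPM. The BLM and Con ranges of endothelial and of mast cell and basophil markers overlapped. The part of macrophage RNA, and of RNA of these other cell types, in the levels of these genes was not tested.

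**Figure D4:**
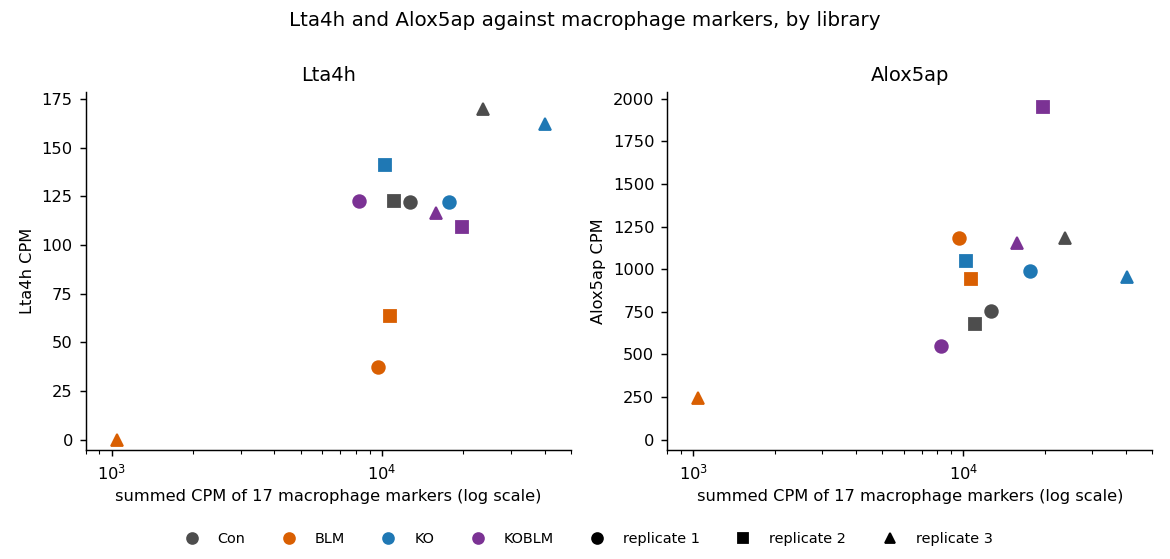
CPM of Lta4h and Alox5ap (vertical axes) against the summed CPM of 17 macrophage markers (horizontal axes, log scale) in the 12 libraries, coloured by group with symbols for the replicate number. BLM 1 and BLM 2 lie at 9630 and 10694 CPM of markers with 37.5 and 63.3 CPM of Lta4h, and BLM 3 at 1046 CPM with 0 CPM. The sum mixes markers that were higher and lower in BLM 1 and BLM 2 than in Con, so its axis is not the amount of macrophage RNA.

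Single markers of alveolar macrophages showed how far libraries of a group differed. Siglecf, a lectin of alveolar macrophages and eosinophils picked after its values were seen, had 175 to 198 CPM in Con, 20.8, 32.3 and 0 CPM in BLM, 203, 8.93 and 400.0 CPM in KO, and 26.4, 251 and 23.8 CPM in KOBLM. KO 2, KOBLM 1 and KOBLM 3, the libraries outside BLM with the least Alox5 and Ltc4s, were also those outside BLM with the least Siglecf. Other values of the macrophage list did not all follow. Adgre1 was at 142 CPM in KO 2 and 141 CPM in KOBLM 1, inside its Con range of 131 to 341 CPM. The sum of the 17 markers was 10230 CPM in KO 2 and 8224 CPM in KOBLM 1, below every Con library. In KOBLM 3 it was 15784 CPM, above Con 1 and Con 2 at 12654 and 11065 CPM. Epcam, on whose protein the cells were sorted, was at 2.75 CPM in KO 2, 10.8 CPM in KOBLM 1 and 2.99 CPM in KOBLM 3, and at 82.7 to 201 CPM in Con. BLM 1 and BLM 2 had 9.56 and 35.7 CPM of Epcam, and BLM 3 had 329 CPM, the highest of all libraries. The results without BLM 3 thus keep the 2 BLM libraries with less Epcam than any Con library. In KO 2, KOBLM 1 and KOBLM 3, Lta4h was at 141, 122 and 117 CPM, inside or close to its Con range.

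The wider pathway was read from a list of 55 genes for arachidonic acid release, other synthases, lipoxygenases, receptors, transport and breakdown, of which 54 were in the files, 33 passed the filter and 11 were at 0 in every library. In BLM against Con, 3 of the 33 were called, 2 higher and 1 lower, beside 4.27% of all tested genes, and the median log2 fold change was -0.24, beside -0.08. Between KOBLM and BLM 0 of 33 were called (3.16% of all), between KO and Con 1 (1.44%) and between KOBLM and KO 0 (1.69%).

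Pla2g15, a lysosomal phospholipase A2 and the highest of the genes for arachidonic acid release (290.4 CPM over the 12 libraries), was lower in BLM than in Con. It had 621, 529 and 519.7 CPM in Con, 46.1, 70.0 and 0 CPM in BLM, 437, 114 and 478 CPM in KO, and 172, 321 and 178 CPM in KOBLM. Like Lta4h, it was lower in each BLM library than in any other library. Between BLM and Con its log2 fold change was -3.69 ± 1.32 (SE, edgeR p = 0.0144, adjusted p = 0.995, exact permutation p = 0.1), and without BLM 3 it was -3.10 ± 0.55 (adjusted p = 0.0898, exact permutation p = 0.1). For KOBLM against BLM it was 2.47 ± 1.26 (edgeR p = 0.0696, adjusted p = 1), and 1.88 ± 0.52 without BLM 3 (p = 0.00269, adjusted p = 1), with an exact permutation p of 0.1 in both.

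Ltb4r1, the high-affinity receptor of leukotriene B4 and the highest leukotriene receptor, was higher in BLM than in Con. It had 14.7, 14.3 and 9.90 CPM in Con, 165, 124 and 22.2 CPM in BLM, 12.2, 33.6 and 8.42 CPM in KO, and 33.5, 12.8 and 25.5 CPM in KOBLM. BLM 1 and BLM 2 stood above all other libraries, and BLM 3 lay within the range of KO and KOBLM. Between BLM and Con its log2 fold change was 3.10 ± 1.08 (SE, edgeR p = 0.0118, adjusted p = 0.995, exact permutation p = 0.1), and without BLM 3 it was 3.61 ± 0.84 (adjusted p = 0.269, exact permutation p = 0.1). Between KOBLM and BLM it was -2.10 ± 1.03 (edgeR p = 0.0608, adjusted p = 1, exact permutation p = 0.3), and without BLM 3 it was -2.61 ± 0.81 (edgeR p = 0.00615, adjusted p = 1, exact permutation p = 0.1). Of the 17 macrophage markers, 6 were above every Con library in BLM 1 and BLM 2, and 8 were below every Con library. Among the 6, Cd14 was at 585 and 295 CPM in BLM 1 and BLM 2 against 133 to 143 CPM in Con. Msr1 was at 440.4 and 327.5 CPM against 7.38 to 14.9 CPM, and C1qa was as given above. The sum of 9 neutrophil markers was 5891 and 1974 CPM in BLM 1 and BLM 2 and 152, 287 and 3894 CPM in Con 1 to 3. Ltb4r1 is itself a receptor of myeloid cells, and their part in its level was not tested.

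Ggt5, a gamma-glutamyl transferase that converts leukotriene C4 to leukotriene D4, was at 0 counts in Con 1 to 3 and had 86, 88 and 0 counts in BLM, 19, 15 and 45 in KO and 31, 188 and 48 in KOBLM. It was called in BLM against Con (edgeR p = 0.0152, adjusted p = 0.995, exact permutation p = 0.4, and adjusted p = 0.496, exact permutation p = 0.1 without BLM 3) and in KO against Con (p = 0.0265, adjusted p = 1, exact permutation p = 0.1), and every KO and KOBLM library was above every Con library. The KO call was lost when any 1 of the 3 Con libraries was left out. The highest gene of each other role was not called. Ptges3, a cytosolic prostaglandin E synthase and cochaperone, had log2 fold changes of -0.91 in BLM against Con and 0.40 in KOBLM against BLM. The corresponding values were -2.44 and 3.53 for Aloxe3, a lipoxygenase best known from skin, 0.63 and 0.08 for Ptger2, a prostaglandin E2 receptor, and -0.35 and 0.59 for Cyp4f18, which oxidises leukotriene B4.

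**Figure D5:**
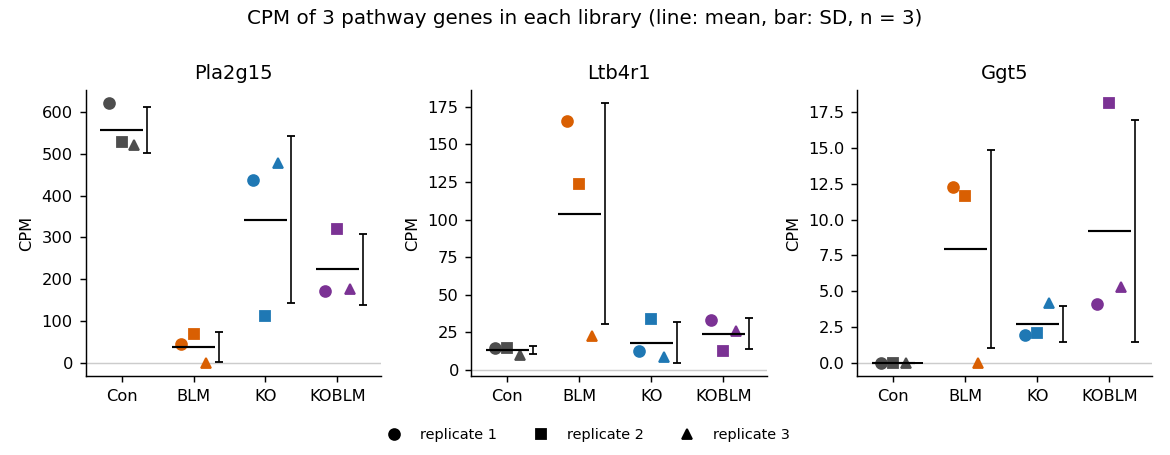
CPM of Pla2g15, Ltb4r1 and Ggt5 (vertical axes) in the libraries of Con, BLM, KO and KOBLM (horizontal axes), with symbols for the replicate number, a line at the group mean and a bar of 1 SD (n = 3). Pla2g15 is at 0 to 70.0 CPM in BLM and at 114 CPM or more elsewhere, and Ltb4r1 is at 165 and 124 CPM in BLM 1 and BLM 2 and at 33.6 CPM or less elsewhere.

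The 7 members with a mean of at least 5 CPM were compared with all tested genes by the Pearson r of log2(CPM + 1) over the 12 libraries, which share their differences in breadth and cell content, so the values are descriptive. Closest to Alox5 was Tmem154 (r = 0.991, 0.949 without BLM 3), to Lta4h Lpl, the lipoprotein lipase (0.990, 0.871), to Tbxas1 Csf2rb2, a beta chain of the interleukin 3 receptor (0.990, 0.923), and to Ltc4s Glul, glutamine synthetase (0.965, 0.948). Alox5ap was closest to Romo1 (0.962, 0.910), followed by Fcer1g, the common gamma chain of Fc receptors (0.955, 0.925). Ptgs1 was closest to Wdr91 (0.984, 0.981), and Hpgd to Gata2 (0.979, 0.970), Bmpr2 (0.961, 0.945) and Ptprb, a phosphatase of endothelial cells (0.936, 0.909). Among the members themselves, Ptgs1 and Ptgs2 had r = 0.756 (0.737 without BLM 3) and Ptgs2 and Ptges 0.711 (0.690). Alox5 and Lta4h had 0.906, which fell to 0.317 without BLM 3, whereas Alox5 and Ltc4s had 0.825 and, without it, 0.786. Next in order of likeness were Gab3 and Soga1 for Alox5, Lcp1 and Lonp2 for Lta4h, Ugt1a6b and Oxa1l for Tbxas1, Cbfb and Ear10 for Ltc4s, Edem2 for Alox5ap, and Strn and Aph1b for Ptgs1.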

How the data were processed

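RNA of sorted ATII cells from 12 mice (Con, BLM, KO and KOBLM, 3 each) was sequenced with the QuantSeq 3′ kit. The authors deposited raw counts per gene symbol for each library, without normalization, as 23282 entries. Where a symbol had several entries (35 symbols) their counts were added. The submitters' processing notes name Bowtie2, edgeR and mm10 without their roles, and strand use in counting is not given in the sources used here.

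Totals were 7005005 to 11153154 counts per library. CPM is the count over the library total, and 3 counts were the floor. Genes were filtered with filterByExpr (minimum count 10, minimum total 15), which kept 13054, scaled by TMM (factors 0.835 to 1.26) and tested with the quasi-likelihood test of edgeR 4.0.16 in R 4.3.3, in a model of the 4 groups with 8 residual degrees of freedom. Called genes were those with an unadjusted p under 0.05 and a change of more than 1.5-fold, and adjusted p values are Benjamini-Hochberg values over all tested genes. All tests were two-sided. The edgeR steps were run on simulated data with far less spread between libraries than here and no outlying library. That run checks the code, not how the tests perform at the spread of these mice. Single genes were also compared by exact permutation of mean log2(CPM + 1), with a pseudocount of 1. No source says that mice were from separate litters or isolations on separate days, so p values measure the spread between these mice.

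The 9 genes, the gene lists and the tests were chosen with earlier results of these data known. All 9 genes are named. Of the pathway list, the genes called in a pairwise comparison and the highest of each role are named, and for likeness the 3 closest genes per member. Same-numbered libraries did not deviate together (18 pairs, correlations -0.143 to 0.0918), so replicate numbers were not used to pair them. Alternatives were DESeq2 1.42.0, its size factors, library size alone, no low-count filter, a replicate block, only the groups compared, an adjusted p and the omission of each library. Gene positions are from GENCODE on GRCm38. The other steps ran in Python 3.11.15 (pandas 2.3.3, numpy 2.4.6), and figures were drawn with matplotlib 3.10.9.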

Additional observations from a re-analysis of the deposited data

How the results depend on the processing

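Of 366 alternative values of 26 log2 fold changes, 332 kept their direction and their side of the threshold, 20 passed it newly and 14 reversed. The spread within groups and the many libraries at 0 limit Ptgs1, Ptgs2, Ptges and Hpgd most.

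No member was called on all libraries with edgeR. Without the low-count filter 1 was called between BLM and Con, beside 771 of all 17480 genes. With DESeq2 1 (Ptgs2) was called between BLM and Con, between KO and Con, in both averaged effects and in the interaction. DESeq2 called 374 to 947 of all 13054 genes in these comparisons. With 1 library left out, 0 to 2 were called between BLM and Con, 0 to 1 between KOBLM and BLM, 0 to 2 for bleomycin over both genotypes (2 without BLM 3, Lta4h and Alox5, and 1 without KO 2, Ptgs2) and 0 to 1 for genotype over both treatments (1 without BLM 3, Lta4h). Without BLM 3, 1009 of all 14084 genes were called for bleomycin over both genotypes and 653 for genotype. With only the 2 libraries per group with the most genes, an alternative chosen after seeing the data, 3 members were called between BLM and Con (Alox5, Lta4h and Ptgs2), 1 between KOBLM and BLM, 1 between KO and Con, 1 between KOBLM and KO, 3 for bleomycin, 2 for genotype and 1 for the interaction. That setting called more of all genes as well. Of 13841 tested, these were 1370 between BLM and Con, 792 between KOBLM and BLM, 593 between KO and Con and 579 between KOBLM and KO. For bleomycin they were 1423, for genotype 853 and for the interaction 861. The cause of these changes was not tested, beyond the libraries left out.

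Of the 33 pathway genes tested, 3 were called between BLM and Con (beside 4.27% of all tested genes), against 1 in a fit of only these groups, 5 with 2 libraries per group and 0 at an adjusted p under 0.05. Between KOBLM and BLM 0 were called (3.16%), against 2 without the filter, 4 with DESeq2 (which called 755 of all 13054 genes), 5 with 2 libraries per group and 0 to 2 with 1 library left out. Between KO and Con 1 was called (1.44%), against 2 with 2 libraries per group, 0 at an adjusted p under 0.05 and 0 to 2 with 1 library left out. Between KOBLM and KO 0 were called (1.69%), against 1 without the filter, 1 with DESeq2 and 0 to 2 with 1 library left out.

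Log2 fold changes that reversed between BLM and Con were those of Alox5ap (-0.43 to 0.43 with 1 library left out, positive without Con 3 or BLM 3, and 0.65 with 2 libraries per group) and Tbxas1 (0.17 with 2 libraries per group). Between KOBLM and BLM they were those of Ptgs1 (-1.70 to 0.77 with 1 library left out, negative without BLM 3 or KOBLM 3), Hpgd (-0.51 to 3.45, negative without KOBLM 1), Alox5 (-0.40 to 1.49) and Ltc4s (-0.087 to 2.59), both negative without KOBLM 2, and, with 2 libraries per group, Alox5 (-0.95), Alox5ap (-0.26), Ltc4s (-0.60) and Tbxas1 (-0.0060). With the replicate block, Ptgs2 reversed to 1.28 between KOBLM and BLM, 0 members were called in each comparison, and no other log2 fold change reversed.

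Ptgs2 between BLM and Con had edgeR p values of 0.0214 to 0.104 over the alternatives, and DESeq2 gave a log2 fold change of 23.11 where Con was at 0. The exact permutation p of Lta4h for bleomycin was 0.005 to 0.145 with 1 library left out, being 0.13, 0.13 and 0.145 without Con 1, Con 2 and Con 3, and that of Alox5 was 0.01 to 0.135. That of Lta4h for genotype was 0.015 to 0.225, with 0.225 without any 1 of the KOBLM libraries.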
